A study of Mus musculus with 16 samples.

Results

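Nerve injury was compared with sham surgery in mice that all received the tricyclic antidepressant desipramine (DMI), using the 4 SNI-DMI and the 4 Sham-DMI libraries among the 16 libraries of the series. The libraries were chosen by their labels alone, and every gene of the count files entered, which gave 52636 genes listed and 21371 tested. Each library held RNA from the pooled lumbar dorsal root ganglia (DRGs) of 1 male C57Bl6/J mouse aged 3 to 4 months. In spared nerve injury (SNI) the common peroneal and sural branches of the sciatic nerve are ligated and cut while the tibial branch is spared, and the other mice had sham surgery. SNI-DMI and Sham-DMI mice both received 15 mg/kg DMI by intraperitoneal injection, 2 times per day for 3 weeks. Treatment started 4 weeks after surgery by the results of the study, whereas its methods give the same number in months. The SNI-Saline and Sham-Saline groups, of 4 libraries each, had the same surgeries and the same schedule of saline injections, and they share no library with the DMI groups. The ganglia held cut and spared neurons together with glia, vessels and immune cells, and only males were studied.

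DRGs contain the cell bodies of the sensory neurons that carry touch, itch, temperature and pain from the body. When the axon of such a neuron is cut, the neuron switches on transcription factors such as Atf3, growth-associated proteins and a set of neuropeptides, and it lowers many of its ion channels and receptors. Satellite glia and macrophages around the cell bodies react as well. DMI blocks the norepinephrine transporter and is used against neuropathic pain.

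The 8 libraries held 41194238 to 73920332 reads on genes, and differences between replicates were far above counting error. The sample labels name spinal cord as the tissue and DRG as the cell type. DRG markers were high in all 8 libraries, with the nociceptor sodium channel Scn10a at 966 to 1300 CPM (reads of a gene scaled to a common library size) and the peripheral neurofilament Prph at 1590 to 1960 CPM. The inhibitory-neuron gene Gad1 lay between 0.418 and 0.924 CPM and the oligodendrocyte gene Mog between 0.0512 and 0.245 CPM, and 6 of 13 spinal cord markers were too low to be tested. The highest spinal cord markers were Aqp4 at 7.53 to 11.9 CPM and the myelin gene Mobp at 1.81 to 12.6 CPM. Library numbers ran from 17 to 20 in Sham-DMI and from 21 to 24 in SNI-DMI, so anything that follows this order cannot be told apart from surgery.

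Some libraries stood apart from the others of their group. Sham-DMI replicates 2 and 4 held more mRNA of several injury genes than replicates 1 and 3, as given with each gene below. SNI-DMI replicate 2 held skeletal muscle RNA, with Acta1 at 55.9 and Tnnt3 at 76.0 CPM, and the 6 muscle markers together came to 304 CPM there against 2.70 to 5.24 CPM in the other 7 DMI libraries. On the first principal component of the 8 libraries, which held 21.6% of the variance, SNI-DMI lay between 0.057 and 0.413 and Sham-DMI between -0.583 and 0.029. On the second, with 18.4%, the groups overlapped. Sham-DMI ran there from -0.657 in replicate 1 to 0.37, and SNI-DMI from -0.432 in replicate 2 to 0.406. The median over genes of the SD of log2 CPM was 0.181 in Sham-DMI and 0.136 in SNI-DMI, against 0.137 in Sham-Saline and 0.133 in SNI-Saline.

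At an adjusted p under 0.1 in edgeR's quasi-likelihood test, injury under DMI raised 80 genes (0.374% of those tested) and lowered 6 (0.0281%), or 86 in all (0.402%). At the cut-offs of the study, a nominal p under 0.05 and a log2 fold change of 0.32 or more in either direction, there were 1156 DEGs (5.41%), of which 870 (4.07%) were higher and 286 (1.34%) lower in SNI-DMI. The smallest adjusted p was 0.000432. The lowest SNI-DMI and highest Sham-DMI level (or the reverse) did not overlap for 1077 genes (5.04%), of which 618 (2.89%) were higher and 459 (2.15%) lower in SNI-DMI, among them 74 of the 80 raised genes and all 6 lowered ones. The raised genes had log2 fold changes from 0.22 upwards with a median of 0.79, and the lowered ones from -0.56 to -0.21. The median over all genes tested was 0.001. The number and direction of calls depended on single libraries, from 17 without SNI-DMI replicate 4 to 850 (316 higher, 534 lower) without Sham-DMI replicate 1, and 16 of the 86 genes were called in all 8 fits that left out 1 library. These 16 all rose. With GC and length trends removed from the counts there were 216 calls, 101 higher and 115 lower, against 80 and 6 here. The spread behind these p-values was estimated over all 16 libraries, saline ones included. With edgeR on the 8 DMI libraries alone, 9 genes were called, all higher.

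**Figure D1:**
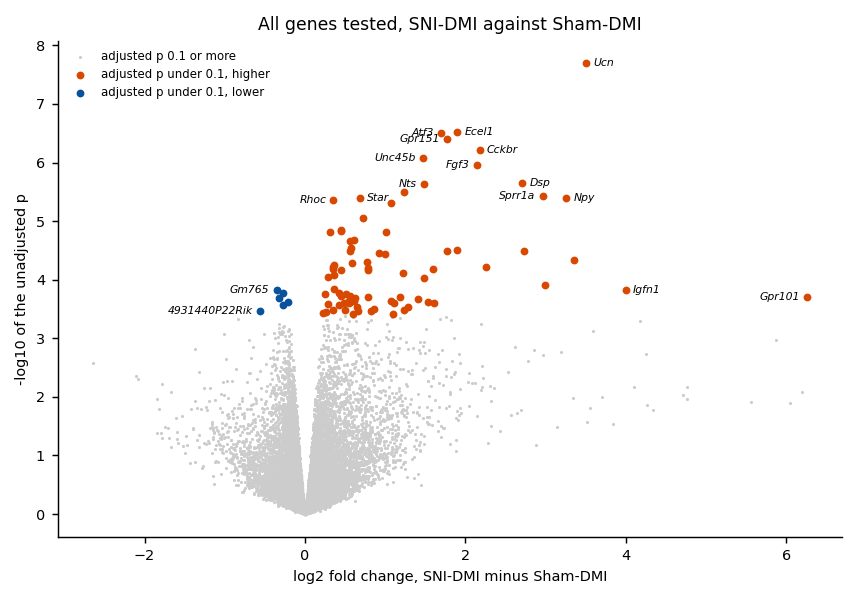
Each point is 1 of the 21371 genes tested, with the log2 fold change of SNI-DMI minus Sham-DMI on the x axis and -log10 of the unadjusted p on the y axis. The 80 raised genes (orange) spread to the right with Ucn highest, the 6 lowered genes (blue) lie between -0.56 and -0.21, and Gpr101 lies at the far right because it had no read in Sham-DMI, so its position depends on the prior count.

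The genes with the firmest changes were those of cut sensory neurons: peptides, receptors of peptides, a transcription factor and growth-associated proteins. Of the list of injury-induced neuropeptides, 3 of 6 tested members rose (Ucn, Nts and Npy), all 6 lay above 0 without overlap between the groups, and the median log2 fold change was 1.52. Of the growth and stress effectors of injured neurons, 6 of 13 rose with a median of 0.37. Of the regeneration-associated transcription factors, 1 of 11 rose (Atf3) with a median of 0.14, and of the receptors of injured and intact neurons 2 of 20 rose (Gpr151 and Cckbr) with a median of -0.07. Over all genes tested, the median was 0.001, 0.374% rose, 50.2% lay above 0 and 2.89% were higher without overlap. These lists were written with earlier results of these data known. The neuropeptide median was 0.75 with at least 10 counts in every library, which tests fewer genes.

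Promoters of 3 of these genes are shown first, because they hold letters that match the binding motifs of AP-1, to which the injury factors Jun and Atf3 contribute, or of the cAMP response element (CRE). Each run covers 250 bases before to 50 bases after the transcription start in RefSeq (GRCm38.p6), 5′ to 3′ on the strand of the gene, with the matches in capitals. Sprr1a lies on the minus strand at chr3:92485832-92486131, Nts on the minus strand at chr10:102490369-102490668 and Ucn on the minus strand at chr5:31138846-31139145.
Sprr1a: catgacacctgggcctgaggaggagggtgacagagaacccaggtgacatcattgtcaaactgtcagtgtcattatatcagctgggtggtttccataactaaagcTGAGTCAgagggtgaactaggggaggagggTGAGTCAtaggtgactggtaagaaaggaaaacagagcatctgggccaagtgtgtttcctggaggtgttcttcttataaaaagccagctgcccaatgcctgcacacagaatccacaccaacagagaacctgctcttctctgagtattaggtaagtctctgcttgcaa
Nts: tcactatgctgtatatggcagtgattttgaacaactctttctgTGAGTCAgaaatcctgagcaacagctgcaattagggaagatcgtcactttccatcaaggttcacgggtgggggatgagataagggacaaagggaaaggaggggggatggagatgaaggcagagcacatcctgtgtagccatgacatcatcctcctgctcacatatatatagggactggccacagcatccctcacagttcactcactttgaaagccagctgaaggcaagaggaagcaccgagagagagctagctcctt
Ucn: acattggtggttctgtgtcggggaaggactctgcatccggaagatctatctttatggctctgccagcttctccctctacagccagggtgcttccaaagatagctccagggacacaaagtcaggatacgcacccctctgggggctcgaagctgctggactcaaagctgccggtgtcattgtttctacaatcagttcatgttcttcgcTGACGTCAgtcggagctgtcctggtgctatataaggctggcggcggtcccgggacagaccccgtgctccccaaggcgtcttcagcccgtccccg
On both strands, the AP-1 motif (TGANTCA) was present in 10 of the 60 raised genes with a promoter in the table (16.7%), in 6.72% of the 13444 tested genes with one and in 8.97% of all 27025 promoters. The CRE motif (TGACGTCA) was present in 1 of the 60 (1.67%), in 3.16% of the tested genes and in 2.03% of all promoters. Such matches describe the letters only, and no binding was measured.

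Ucn encodes urocortin, a peptide of the corticotropin-releasing factor family, and had the smallest p of all genes. Its level in Sham-DMI was 0.0854, 0.275, 0.0250 and 0.158 CPM in replicates 1 to 4, and in SNI-DMI 1.55, 1.70, 1.09 and 2.41 CPM. All SNI-DMI libraries were above all Sham-DMI libraries, by a log2 fold change of 3.50 ± 0.37 (SE, n = 4 against 4, edgeR adjusted p = 0.000432). The gene (ENSMUSG00000038676) lies on the minus strand of chromosome 5 at 31138063 to 31138829 in GRCm38, and its levels were low in absolute terms.

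Npy encodes neuropeptide Y, which large injured sensory neurons are known to make. Sham-DMI held 0.512, 4.5, 1.5 and 3.34 CPM and SNI-DMI 26.9, 19.4, 17.6 and 33 CPM. The lowest SNI-DMI library was thus well above Sham-DMI replicate 2, the highest of the sham group, and the log2 fold change was 3.26 ± 0.50 (edgeR adjusted p = 0.0067). Nts, which encodes the peptide neurotensin, was at 18.4, 24.2, 15.8 and 38.7 CPM in Sham-DMI and at 74.6, 55.5, 52.0 and 91.5 CPM in SNI-DMI. It rose by 1.49 ± 0.22 on the log2 scale (edgeR adjusted p = 0.00548), with replicate 4 the highest of both groups. Galanin (Gal), another peptide of cut neurons, was at 37.2, 29.6, 25.9 and 28.5 CPM in Sham-DMI and at 50.5, 44.5, 50.8 and 57.9 CPM in SNI-DMI. These Gal values did not overlap, but the log2 fold change of 0.75 ± 0.19 had an edgeR adjusted p of 0.138.

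Among the peptide receptors, Cckbr, the cholecystokinin B receptor, was at 1.06, 2.18, 0.674 and 2.74 CPM in Sham-DMI and at 7.88, 5.88, 6.00 and 11.1 CPM in SNI-DMI. Its log2 fold change was 2.18 ± 0.29 (edgeR adjusted p = 0.0026). Gpr151, an orphan receptor of injured neurons, rose from 1.52, 2.5, 1.57 and 2.38 CPM to 8.47, 5.73, 4.12 and 9.09 CPM, a log2 fold change of 1.77 ± 0.23 (edgeR adjusted p = 0.00211). The other 18 receptors of the list, which comprise opioid, neurotrophin and cytokine receptors, did not pass the test. The delta opioid receptor Oprd1, for example, was 14.2 to 18.8 CPM in Sham-DMI and 9.86 to 14.2 CPM in SNI-DMI, with a log2 fold change of -0.43 ± 0.13 and an edgeR adjusted p of 0.206.

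Atf3, the stress-induced transcription factor widely used as a marker of cut neurons, was at 11.4, 20.6, 13.7 and 21.9 CPM in Sham-DMI and at 59.5, 45.3, 36.9 and 78.9 CPM in SNI-DMI. No library overlapped, and the log2 fold change was 1.70 ± 0.22 (edgeR adjusted p = 0.00211). Sox11, a growth-associated transcription factor, was at 9.43 to 13.8 CPM in Sham-DMI and 13.7 to 19 CPM in SNI-DMI, with a log2 fold change of 0.46 ± 0.13 that did not pass (edgeR adjusted p = 0.157). Jun, the partner of Atf3, was at 81.3 to 102 CPM against 97.5 to 127 CPM (0.22 ± 0.08, edgeR adjusted p = 0.301).

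Ecel1 encodes a membrane peptidase switched on in damaged neurons, and was at 3.79, 6.29, 2.85 and 4.65 CPM in Sham-DMI and at 18.3, 12.5, 11.1 and 24.1 CPM in SNI-DMI. Its log2 fold change was 1.90 ± 0.24 (edgeR adjusted p = 0.00211). Sprr1a, a small proline-rich protein that promotes axon growth, was at 1.81, 12.2, 1.67 and 9.19 CPM in Sham-DMI and at 59.3, 37.6, 30.1 and 73.9 CPM in SNI-DMI. Sham-DMI replicates 2 and 4 thus held several times more Sprr1a mRNA than replicates 1 and 3, and all 4 were below every SNI-DMI library (log2 fold change 2.97 ± 0.45, edgeR adjusted p = 0.0067).

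The other 4 called growth effectors changed less. The microtubule regulator Stmn4 rose from 20.7 to 30.3 CPM in Sham-DMI to 32.9 to 52.0 CPM in SNI-DMI (0.72 ± 0.12, edgeR adjusted p = 0.0116). The guidance molecule Sema6a (0.61 ± 0.11), the stress gene Gadd45a (0.45 ± 0.08) and the growth cone protein Gap43 (0.26 ± 0.06) rose as well. Gap43 lost its call in 5 of the 8 fits without 1 library and in 5 of 9 other alternatives, and Sham-DMI replicate 1, at 306 CPM, reached the lowest SNI-DMI library, also at 306 CPM. Of the 15 tubulin genes tested, Tubb6 alone passed, from 21.9 to 25.3 CPM in Sham-DMI to 27.1 to 40.4 CPM in SNI-DMI (0.56 ± 0.10, edgeR adjusted p = 0.0209).

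**Figure D2:**
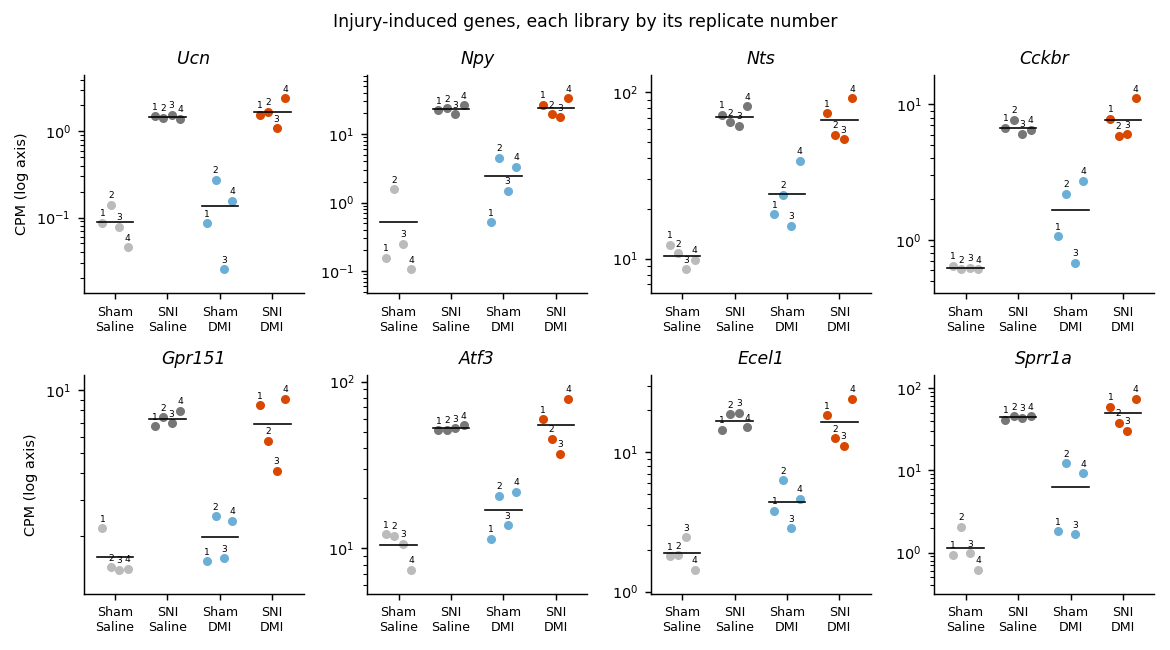
Levels in CPM (log axis) of 8 raised genes in each library of the 4 groups, with the replicate number above each point and a black line at the group mean. In all 8 panels the SNI-DMI libraries lie above the Sham-DMI libraries, and Sham-DMI replicates 2 and 4 lie above replicates 1 and 3.

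The same order of libraries ran through many of the raised genes. SNI-DMI replicates 1 and 4 were both above replicates 2 and 3 in 54 of the 80 raised genes, against 18% of all genes tested. Sham-DMI replicates 2 and 4 were both above replicates 1 and 3 in 26 of the 80, against 15.6% of all genes tested. Mean log2 CPM of the 80 genes was 2.12, 2.40, 2.06 and 2.38 in Sham-DMI and 3.49, 3.18, 3.06 and 3.63 in SNI-DMI, with the gap between the groups fixed by the choice of genes. The saline libraries entered that choice only through the shared gene filter, scaling and estimate of the spread. In them, mean log2 CPM of these genes was 2.06 to 2.27 in Sham-Saline and 3.29 to 3.43 in SNI-Saline. With Sham-DMI replicates 2 and 4 both left out, 30 genes were called, 22 of them among the 86.

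Other genes among the 15 raised with the smallest p code for signalling proteins outside the lists. Fgf3, a fibroblast growth factor, was at 0.342, 0.686, 0.250 and 0.646 CPM in Sham-DMI and at 2.06, 1.75, 1.45 and 3.53 CPM in SNI-DMI (2.14 ± 0.30, edgeR adjusted p = 0.00331). Follistatin (Fst), which binds activins, rose from 1.45 to 2.20 CPM to 2.79 to 5.94 CPM (1.23 ± 0.19, edgeR adjusted p = 0.00669). Star, which carries cholesterol into mitochondria, rose from 7.29 to 10 CPM to 12.3 to 15.9 CPM (0.68 ± 0.10). The small GTPase Rhoc had one of the smallest changes of the set, from 66.8 to 77.4 CPM to 85.3 to 95.1 CPM (0.35 ± 0.05, edgeR adjusted p = 0.00672). All 4 were called in every fit without 1 library and none in edgeR on the 8 DMI libraries alone, and Fst (adjusted p = 0.139) and Rhoc (0.126) were not called by edgeR without Sham-DMI replicates 2 and 4.

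Dsp and Unc45b belong to the same set and are better known from other tissues. Dsp encodes desmoplakin, a protein of cell junctions, and was at 0.0749 to 0.171 CPM in Sham-DMI and 0.367 to 1.10 CPM in SNI-DMI (2.71 ± 0.40, edgeR adjusted p = 0.00548). Unc45b encodes a chaperone for myosin and was at 0.905, 1.17, 0.674 and 0.804 CPM in Sham-DMI and at 2, 2.76, 2.16 and 3.06 CPM in SNI-DMI (1.47 ± 0.20, edgeR adjusted p = 0.00302). SNI-DMI replicate 2, which held muscle RNA, was second to replicate 4 for Unc45b, and the call held without it. Igfn1, another gene of striated muscle, was at 0.0171 to 0.205 CPM in Sham-DMI and at 1.20, 3.98, 0.346 and 1.18 CPM in SNI-DMI, highest in replicate 2. It rose by 4.0 ± 0.84 on the log2 scale (edgeR adjusted p = 0.0677), and the call held in 4 of the 8 fits without 1 library, among them that without SNI-DMI replicate 2. Gpr101, an orphan receptor, had no read in any Sham-DMI library and 7, 1, 16 and 14 reads in SNI-DMI, which is at least 11.9-fold higher against a floor of 3 reads over the Sham-DMI group.

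The next 11 genes were picked from the called genes after their values were seen, so their number says nothing about matrix genes in general. The fibrillar collagens Col5a3 (0.45 ± 0.08), Col11a2 (0.43 ± 0.09) and Col27a1 (0.56 ± 0.12) rose, as did the matrix glycoproteins Tnc (1.22 ± 0.24) and Thbs2 (0.65 ± 0.14) and the laminin chain Lamb3 (1.08 ± 0.23). Col5a3 was the most abundant, at 200, 225, 227 and 217 CPM in Sham-DMI and 339, 274, 270 and 305 CPM in SNI-DMI. The collagen cross-linker Loxl2 (0.99 ± 0.18), the proteases Mmp12 (2.25 ± 0.43), Mmp14 (0.36 ± 0.07) and Adam8 (0.56 ± 0.10) and the proteoglycan Sdc4 (0.34 ± 0.07) rose as well. In the list of fibroblast and matrix markers, written with earlier results of these data known, 0 of 11 genes were called by edgeR. In that list 9 lay above 0, 4 had a nominal p under 0.05 and the median was 0.29.

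A few more raised genes were picked after their values were seen. The pro-apoptotic gene Hrk was at 0.786 to 1.74 CPM in Sham-DMI and at 1.67 to 3.57 CPM in SNI-DMI (1.11 ± 0.24), with SNI-DMI replicate 3 inside the sham range. The cell-cycle inhibitor Cdkn2a rose by 0.78 ± 0.15 on the log2 scale and Tnfrsf12a, a receptor of the tumour necrosis factor family, by 0.59 ± 0.11. The lysosomal genes Cd63 (0.32 ± 0.05) and Grn (0.34 ± 0.08) and the lipid droplet gene Plin2 (0.35 ± 0.07) rose slightly, with Cd63 at 57.3 to 66.9 CPM in Sham-DMI and 72.8 to 80.5 CPM in SNI-DMI.

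The 6 lowered genes had small and even changes. Htr7 encodes a Gs-coupled serotonin receptor and was at 19.3, 19.1, 20.6 and 18.5 CPM in Sham-DMI and at 15.7, 15.2, 16.7 and 16.6 CPM in SNI-DMI. Its log2 fold change was -0.27 ± 0.06 (edgeR adjusted p = 0.0786). Oprl1, the receptor of the opioid-like peptide nociceptin, was at 28.4, 29.7, 28.8 and 31.9 CPM in Sham-DMI and at 23.9, 20.8, 26.2 and 24.2 CPM in SNI-DMI (-0.32 ± 0.07, edgeR adjusted p = 0.0752). Neither gene overlapped between the groups. Lgi2, a secreted protein of the synapse (-0.27 ± 0.06), Crbn, a substrate receptor of a ubiquitin ligase (-0.21 ± 0.05), and the unnamed genes Gm765 (-0.35 ± 0.07) and 4931440P22Rik (-0.56 ± 0.13) fell as well. Each of the 6 lost its call in 4 to 6 of the 8 fits without 1 library, in which none changed sign.

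Beyond Htr7, no other member of the 30 tested monoamine receptors, transporters and enzymes passed, and the list had 15 members above 0 and a median of -0.03. The norepinephrine transporter Slc6a2, which DMI blocks, was barely detected, at 0.0854 to 0.126 CPM in Sham-DMI and 0.0523 to 0.271 CPM in SNI-DMI (0.57 ± 0.62, edgeR adjusted p = 0.745). The serotonin transporter Slc6a4 was at 0.478, 0.316, 0.150 and 0.189 CPM in Sham-DMI and at 1.15, 0.597, 0.511 and 1.85 CPM in SNI-DMI, without overlap. Its log2 fold change of 1.83 ± 0.43 had an edgeR adjusted p of 0.1075, just above the threshold. Dbh, which makes norepinephrine, was at 0 to 0.0946 CPM in Sham-DMI and 0.033 to 0.271 CPM in SNI-DMI (1.13 ± 0.62, edgeR adjusted p = 0.484).

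No member of the 5 ion channel lists passed the test, although most members lay below 0. A potassium channel outside the lists, the Kcnk16, chosen after its values were seen, did rise, from 0.564, 0.769, 0.375 and 0.646 CPM in Sham-DMI to 1.36, 1.52, 0.924 and 1.82 CPM in SNI-DMI (1.23 ± 0.28, edgeR adjusted p = 0.0881). It kept its call in 2 of the 8 fits without 1 library. Of 11 voltage-gated sodium channels 3 lay above 0, with 3 lower at a nominal p under 0.05 and a median of -0.15. Of 25 potassium channels 4 lay above 0, 2 were higher and 9 lower at a nominal p under 0.05, and the median was -0.11. The medians were -0.04 for 16 calcium channel subunits, -0.05 for 17 TRP, Piezo, acid-sensing and P2X channels, and -0.15 for 13 GABA-A and glycine receptor subunits. At a nominal p under 0.05 the share of all genes tested was 6.67% higher and 5.43% lower.

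A few channels were named as the list members with the smallest p. The inwardly rectifying channel Kcnj3 was at 23.7 to 27.2 CPM in Sham-DMI and 18.2 to 22.8 CPM in SNI-DMI (-0.30 ± 0.07, edgeR adjusted p = 0.127). The irritant-sensing channel Trpa1 was at 66.1 to 77.2 CPM against 60.3 to 65.3 CPM (-0.20 ± 0.06, edgeR adjusted p = 0.206). In both genes the groups did not overlap, whereas they did for the sodium channel Scn1a, at 112 to 186 CPM against 96.1 to 136 CPM (-0.37 ± 0.13). The calcium channel subunit Cacna2d3 had -0.13 ± 0.05 (edgeR adjusted p = 0.301).

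Other neuronal lists had no called member. Of 22 markers of sensory neuron subtypes 4 lay above 0, with a median of -0.15 and the itch receptor Mrgprx1 at -0.32 ± 0.10. The 5 constitutive nociceptor and pruriceptor peptides had a median of -0.02, with Tac1, the precursor of substance P, at 0.22 ± 0.11. The 9 tested DRG markers had a median of -0.04 and the 7 tested spinal cord markers 0.11, with the myelin gene Mobp at -1.14 ± 0.52. In the activity-dependent immediate early genes 11 of 12 lay above 0 with a median of 0.21, and Fos was at 2.73 to 3.23 CPM in Sham-DMI and 3.42 to 5.2 CPM in SNI-DMI (0.40 ± 0.17, edgeR adjusted p = 0.369). In whole ganglia, fewer cells of a type and less RNA per cell cannot be told apart, which holds for every gene here.

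Most members of the interferon, MHC, macrophage and complement lists lay above 0, but few passed the test. Of 26 interferon-stimulated genes all lay above 0, 24 had a nominal p under 0.05 and 2 rose, with a median of 0.80. Of all genes tested, 50.2% lay above 0, 6.67% were higher at a nominal p under 0.05 and 0.374% rose. The list summed to 405 to 474 CPM in Sham-DMI and to 867, 458, 539 and 832 CPM in SNI-DMI. SNI-DMI replicate 2 thus lay inside the sham range. Irf7, a transcription factor of the interferon response, was at 5.89, 5.45, 3.70 and 4.71 CPM in Sham-DMI and at 14.9, 6.65, 9.38 and 17.4 CPM in SNI-DMI (1.29 ± 0.29, edgeR adjusted p = 0.0841). Bst2, an antiviral membrane protein, was at 15.3, 10.2, 12 and 13.7 CPM in Sham-DMI and at 32.4, 16.5, 21.3 and 39 CPM in SNI-DMI (1.09 ± 0.25, edgeR adjusted p = 0.0963). Both genes were highest in SNI-DMI replicates 1 and 4. Both lost their call in 5 of the 8 fits without 1 library, and the list median lay between 0.59 and 1.0 in those fits.

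Macrophage, antigen presentation and complement genes had the same pattern of libraries. The 19 macrophage markers summed to 201, 153, 199 and 219 CPM in Sham-DMI and to 415, 253, 203 and 329 CPM in SNI-DMI, so that SNI-DMI replicate 3 lay inside the sham range. None was called, 18 of 19 lay above 0, 14 were higher and 1 lower at a nominal p under 0.05, and the median was 0.64. The lysosomal protease Ctss was the member with the smallest p (1.04 ± 0.26, edgeR adjusted p = 0.127), and the fractalkine receptor Cx3cr1 was at 5.71 to 7.77 CPM in Sham-DMI and 8.05 to 12.3 CPM in SNI-DMI (0.64 ± 0.17, edgeR adjusted p = 0.138). All 18 genes of MHC class I and II antigen presentation lay above 0, 14 at a nominal p under 0.05, with a median of 0.62 and none called. They summed to 703 to 935 CPM in Sham-DMI and to 1610, 1040, 921 and 1350 CPM in SNI-DMI, with SNI-DMI replicate 3 inside the sham range. Of 14 complement genes 13 lay above 0 with a median of 0.42, and the complement component C1qa had 0.79 ± 0.22 (edgeR adjusted p = 0.17).

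Csf1 was the called member among 9 macrophage recruitment genes, 8 of which lay above 0 with a median of 0.44. It encodes the growth factor by which injured neurons act on macrophages and microglia, and was at 25.1, 23.9, 25.0 and 21.8 CPM in Sham-DMI and at 36.7, 29.3, 26.9 and 42.4 CPM in SNI-DMI. The log2 fold change was 0.50 ± 0.11 (edgeR adjusted p = 0.0881), and the call was lost in 5 of the 8 fits without 1 library and in 4 of 9 other alternatives. Of 14 tested cytokines and chemokines none was called, 13 lay above 0 with a median of 0.91, and Tgfb1 came closest at 0.55 ± 0.13 (edgeR adjusted p = 0.109).

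**Figure D3:**
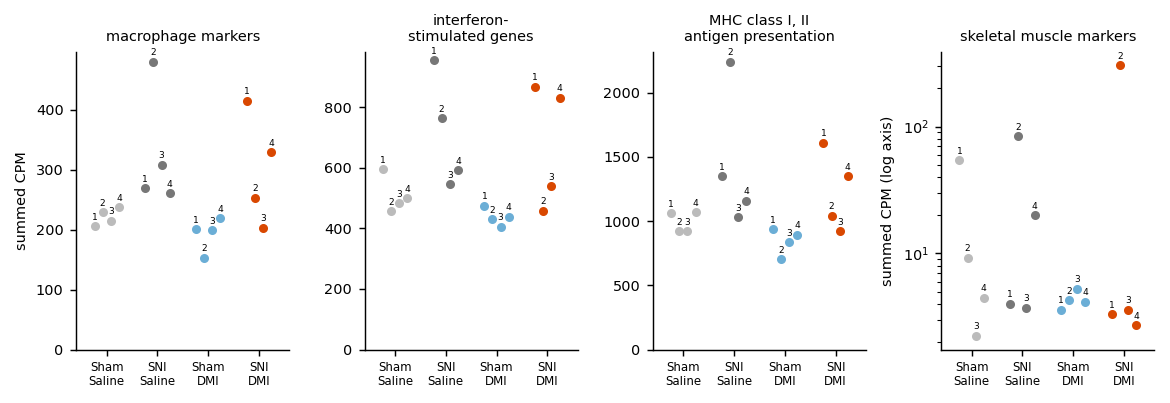
Summed CPM of 4 marker lists in each library of the 4 groups, with the replicate number above each point (log axis for skeletal muscle only). In the 3 immune lists SNI-DMI replicates 1 and 4 are the highest DMI libraries, and the muscle list stands at 304 CPM in SNI-DMI replicate 2.

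Markers of other leukocytes and of blood had no called member. The 11 T and natural killer cell markers all lay above 0 (median 0.65), with Il2rb at 0.189 to 0.461 CPM in Sham-DMI and 0.495 to 2.32 CPM in SNI-DMI (1.85 ± 0.47, edgeR adjusted p = 0.133). The medians were 0.14 for 14 neutrophil markers (-0.02 to 0.59 without 1 library), 0.35 for 6 B-lineage markers and -0.02 for 6 red cell markers. The immunoglobulin gene Igkc was at 0.499 to 2.36 CPM in Sham-DMI and at 2.21, 9.80, 0.808 and 0.995 CPM in SNI-DMI. The 6 skeletal muscle markers had a median of 4.52, which was -0.65 without SNI-DMI replicate 2, and none was called.

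Glial, vascular and matrix cell markers had no called member either. Of 10 satellite glia markers 9 lay above 0 with a median of 0.10, and the potassium channel Kcnj10 of these cells was at 66.2 to 79.5 CPM in Sham-DMI and 80.8 to 102 CPM in SNI-DMI (0.32 ± 0.08, edgeR adjusted p = 0.133). The medians were 0.05 for 11 Schwann cell and myelin markers (-0.05 with GC and length trends removed), 0.24 for 9 repair Schwann cell markers and 0.16 for 12 endothelial and pericyte markers. The growth inhibitor Thbs1 of the fibroblast list was at 5.14 to 8.39 CPM in Sham-DMI and 8.32 to 19.2 CPM in SNI-DMI (0.86 ± 0.26, edgeR adjusted p = 0.206).

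Housekeeping and stress lists had medians between -0.12 and 0.18. Of 78 cytosolic ribosomal protein genes none was called, 71 lay above 0 and the median was 0.07, which became -0.01 with GC and length trends removed. Of 95 nuclear respiratory chain genes none was called and the median was 0.02, which became -0.04 in that alternative. The medians were -0.12 for 13 mitochondrially encoded genes, 0.05 for tubulin genes (-0.05 in that alternative), 0.05 for 14 genes of the integrated stress and unfolded protein response (-0.02), -0.01 for 15 genes of cholesterol synthesis and uptake, and 0.18 for 11 glucocorticoid-responsive genes and metallothioneins, of which 6 were higher at a nominal p under 0.05. None of these genes but Tubb6 was called. The 4 tested genes of the sex check had a median of -0.08 with none called, and the Y-linked Eif2s3y was at 36.3 to 41.2 CPM in all 8 libraries.

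**Figure D4:**
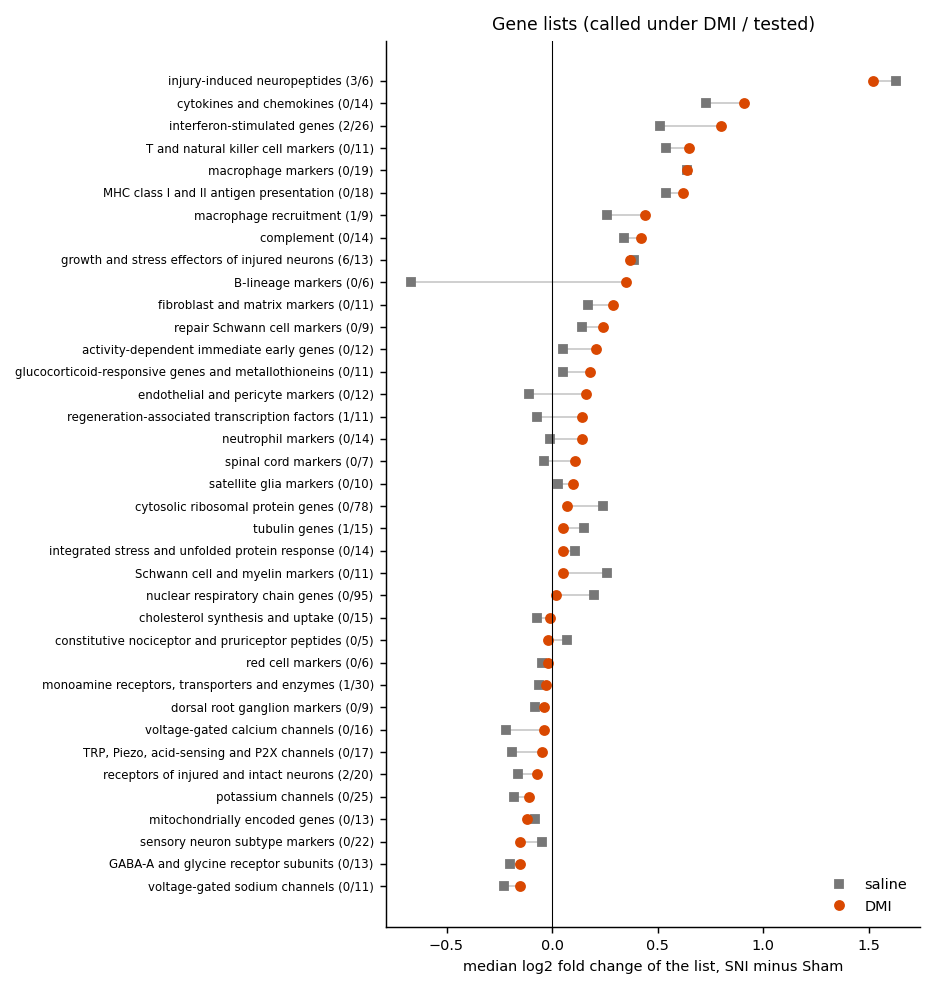
Median log2 fold change of each gene list for SNI minus Sham under DMI (orange circles) and under saline (grey squares), with the number of genes called under DMI and tested in brackets. Injury-induced neuropeptides reach 1.52, the macrophage, interferon, MHC, complement, cytokine and T cell lists lie between 0.42 and 0.91, and sodium channels, GABA-A and glycine receptor subunits and sensory neuron subtype markers lie lowest at -0.15. The muscle, sex check and study lists are not drawn.

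A list of 20 genes taken from those the study names, which are more, had no called member. The study chose them on these samples, so they are not independent evidence. At a nominal p under 0.05, 4 were higher, among them Drd2 (0.88 ± 0.33), Zfp36 (0.32 ± 0.12) and Jun, and 1 was lower (Htr2c, -0.97 ± 0.44). The dopamine receptor Drd2 was at 3.71, 1.61, 2.30 and 1.25 CPM in Sham-DMI and at 4.37, 4.46, 3.02 and 4.39 CPM in SNI-DMI. For inflammatory members, the log2 fold changes were 1.10 ± 0.63 for Il1b, -0.51 ± 0.48 for Il6, 0.22 ± 0.14 for Il18, 0.14 ± 0.44 for S100a8 and -0.58 ± 0.51 for Chil3. The transcription factor Creb1 had -0.06 ± 0.08 and Th, the first enzyme of catecholamine synthesis, 0.14 ± 0.13.

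Injury was then set beside injury in the saline groups, to ask whether the drug changed the response. Library numbers ran from 33 to 36 in SNI-Saline and from 37 to 40 in Sham-Saline, the reverse of the surgery order in the DMI groups. Anything that follows library number thus cannot be told apart from the drug or from a difference between the injury effects. Under saline, 2571 genes (12.0%) passed the same test, 1250 higher (5.85%) and 1321 lower (6.18%). The test of the difference between both injury effects called 0 genes in edgeR (smallest adjusted p = 0.59), with 1692 at a nominal p under 0.05 (7.92%), and DESeq2 on all 16 libraries called 16. The larger number of calls under saline is therefore not shown to be a difference for any single gene by edgeR. Across the 21371 genes, the Spearman correlation of both log2 fold changes was 0.328 as a description, and 0.446 over 15750 genes of at least 1 CPM.

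The 80 genes raised under DMI had a median log2 fold change of 0.79 under DMI and 0.73 under saline. Of these, 78 lay above 0 under saline and 61 passed the test there, against 5.85% of all genes. The 6 genes lowered under DMI had medians of -0.30 and -0.12, all 6 lay below 0 under saline and 1 passed there (Gm765). Conversely, the 1250 genes raised under saline had a median of 0.26 there and 0.08 under DMI, where 84.2% lay above 0. The 1321 lowered under saline had a median of -0.27 there and -0.11 under DMI, where 11.4% lay above 0. Each set was chosen on 1 of the effects it is compared on, so these medians are a description.

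**Figure D5:**
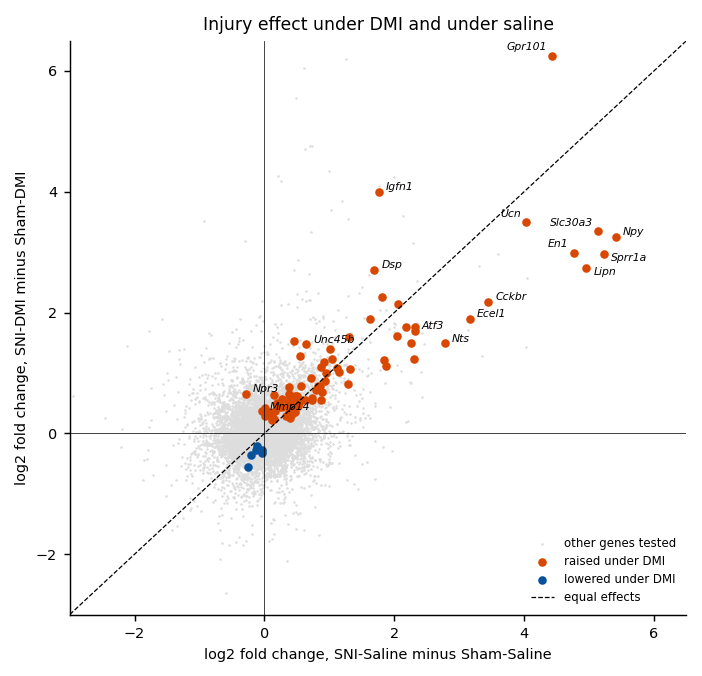
Log2 fold change of SNI-Saline minus Sham-Saline (x axis) against SNI-DMI minus Sham-DMI (y axis) for each gene tested, with genes raised (orange) and lowered (blue) under DMI and a dashed line of equal effects. Npy, Sprr1a, Nts, Ecel1 and Cckbr lie below the line, Igfn1 and Dsp above it, and the position of Gpr101 depends on the prior count.

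For several injury genes the fitted effect was smaller under DMI, without passing the test of the difference. Sprr1a was at 0.619 to 2.06 CPM in Sham-Saline and 41.1 to 45.5 CPM in SNI-Saline, so that its injury effect under DMI was smaller by 2.27 on the log2 scale (edgeR adjusted p = 0.619). Nts was at 8.62 to 12.1 CPM in Sham-Saline and 62.8 to 82.2 CPM in SNI-Saline, with a difference of -1.29 (edgeR adjusted p = 0.619). The differences were -1.27 for Ecel1, -2.15 for Npy and -1.26 for Cckbr, each with the same edgeR adjusted p of 0.619, and -0.53 for Ucn (0.83). Atf3 was at 7.44 to 12.1 CPM in Sham-Saline and 50.9 to 54.6 CPM in SNI-Saline, and its difference of -0.62 had an edgeR adjusted p of 0.628. None of these differences passed the adjustment. Sham-DMI replicates 2 and 4 were left out together in an alternative chosen after seeing the data. Both lay above replicates 1 and 3 for each of these genes, so a larger effect without them was fixed by that choice. Without both, the log2 fold change under DMI was 4.84 for Sprr1a (5.23 under saline), 4.68 for Npy (5.41), 3.12 for Cckbr (3.44) and 2.14 for Atf3 (2.32). It was 2.3 for Ecel1 (3.16), 2.0 for Nts (2.78) and 4.77 for Ucn (4.03).

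Of the 80 raised genes, 10 had a larger effect under DMI and 8 a smaller one at a nominal p under 0.05 (3.94% and 3.98% of all genes tested). These 80 were chosen on the effect under DMI, which is part of the difference, so the counts are a description. Npr3, the clearance receptor of natriuretic peptides, was at 3.55, 2.96, 3.42 and 4.32 CPM in Sham-DMI and at 5.18, 6.92, 5.11 and 5.28 CPM in SNI-DMI, but at 5.29 ± 1.05 CPM in Sham-Saline and 4.34 ± 0.20 CPM in SNI-Saline (SD, n = 4). Its difference of 0.94 had an edgeR adjusted p of 0.611, and DESeq2 on all 16 libraries called it (adjusted p = 0.0394). Mmp14 was at 29.1 ± 1.60 CPM in Sham-DMI and 37.4 ± 3.21 CPM in SNI-DMI, against 30.3 ± 2.14 and 29.5 ± 1.88 CPM in the saline groups (difference 0.40, edgeR adjusted p = 0.619).

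Over all genes of at least 1 CPM, the 5 with the smallest p for a higher injury effect under DMI were Sh3pxd2b, Neto2, Cflar, Thsd7a and Cacna1e, and the 5 for a lower one were Ostf1, Gm26577, Grhpr, Nts and Esd. Thsd7a, a protein of blood vessels, was at 151 ± 6.89 CPM in Sham-Saline and 106 ± 6.68 CPM in SNI-Saline, while Sham-DMI and SNI-DMI held 105 ± 14.3 and 106 ± 7.16 CPM (SD, n = 4). Ostf1, a signalling adaptor, was at 183 ± 6.72, 213 ± 5.44, 220 ± 6.38 and 212 ± 2.57 CPM in the same order. The edgeR adjusted p of all 10 differences lay at or above 0.59, whereas DESeq2 on all 16 libraries called 8 of them, all but Nts and Esd, with adjusted p from 0.0059 for Ostf1 to 0.0796 for Gm26577. The result for these 8 genes thus depends on the tool.

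The ribosomal and respiratory lists differed most in their counts of calls. Under saline 61 of 78 ribosomal protein genes and 56 of 95 nuclear respiratory chain genes rose, with medians of 0.24 and 0.20, and under DMI none was called. Ribosomal protein genes summed to 5810 to 6580 CPM in Sham-Saline, 6940 to 7470 CPM in SNI-Saline, 6640 to 8350 CPM in Sham-DMI and 7830 to 8160 CPM in SNI-DMI. The effect was smaller under DMI at a nominal p under 0.05 for 20 of the 78 and 45 of the 95, beside 3.98% of all genes, and none of these differences passed the adjustment. Reads outside annotated genes made up 8.67% to 9.44% of read pairs in Sham-Saline and 7.73% to 9.14% in SNI-Saline. A link between this share and the ribosomal or respiratory levels was not tested. With GC and length trends removed, 1044 of all genes tested were called under saline instead of 2571. Medians of immune lists were 0.64 in each comparison for macrophage markers, 0.62 under DMI and 0.54 under saline for MHC genes, and 0.80 and 0.51 for interferon-stimulated genes. For 6 B-lineage markers the medians were 0.35 under DMI and -0.67 under saline, where 2 were called lower, and all 6 differences lay above 0 with none called.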

How the data were processed

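The authors aligned paired reads of stranded mRNA libraries to mm10 with HISAT2 and counted them per Ensembl gene with HTSeq, as far as the labels and the methods of the study say. The deposited values are whole-number counts. The annotation release and the strand setting are not given in the sources used here, so genes that overlap on opposite strands are uncertain. Reads on genes made up 79.69% to 81.17% of the read pairs in the DMI libraries, and rows of unassigned reads were left out. Symbols and coordinates are from GENCODE M21 (GRCm38), which held 52489 of the 52636 genes.

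All 16 libraries were fitted together in edgeR 4.0.16 (filterByExpr, TMM, glmQLFit, 1 coefficient per group), and p-values were adjusted by Benjamini-Hochberg over 21371 genes. An SE is the absolute log2 fold change over the root of the F statistic. Log2 CPM used a prior count of 2. The members, the 40 gene lists and the tests were chosen with earlier results of these data known. The genes named are the 15 with the smallest p and the 8 with the largest change in each direction, up to 6 members of each list, 20 genes the study names and the 5 leading differences in each direction (91 genes), and 63 added after their values were seen. Some of these genes are not reported here. Alternatives used DESeq2 1.42.0, other scalings and filters, 8 libraries only, a replicate block, GC and length trends removed with mgcv 1.9.3, and each library left out. In simulated data with 200 changed genes among 21103, 52% of genes with a log2 fold change of 0.5, 78% of those with 1 and 94% of those with 2 were called for SNI-DMI versus Sham-DMI, and 12.5% of 184 calls were false. The simulation drew genes independently and gave each gene the same spread in every group, unlike these libraries, so its shares need not hold here. Each library is 1 mouse, so p-values rest on the spread between mice. That spread was estimated over the mice of all 4 groups, not over the 8 DMI mice alone.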

Additional observations from a re-analysis of the deposited data

Results flagged for a closer look

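Single libraries lay far from the other 3 of their group in 16 of 387 groups tested with Dixon's criterion, where chance alone gives about 19.4. Sham-DMI replicate 1 stood apart for Gadd45a at 21.7 CPM (others 18 to 18.5), Gap43 at 306 CPM (others 273 to 277) and Irf2bp1 at 35.1 CPM (others 23.8 to 25.1). SNI-DMI replicate 3 stood apart for Car3 at 9.42 CPM (others 17.8 to 20.1) and Drd2 at 3.02 CPM (others 4.37 to 4.46). SNI-DMI replicate 4 stood apart for Grn at 124 CPM (others 109 to 112) and nuclear respiratory chain genes at 5.94 mean log2 CPM (others 6.01 to 6.02). SNI-DMI replicate 2 stood apart for Npr3 at 6.92 CPM (others 5.11 to 5.28), Tnnt3 at 76 CPM (others 0.271 to 0.544), Flt1 at 19.9 CPM (others 24.6 to 25.7), Actb at 937 CPM (others 990 to 1000) and skeletal muscle markers at 5.47 mean log2 CPM (others -1.61 to -1.04). Sham-DMI replicate 2 stood apart for Fos at 2.73 CPM (others 3.16 to 3.23) and Cflar at 59.9 CPM (others 53.7 to 54.6). Sham-DMI replicate 4 stood apart for Mmp9 at 2.18 CPM (others 1.07 to 1.2). Sham-DMI replicate 3 stood apart for tubulin genes at 7.06 mean log2 CPM (others 6.91 to 6.93).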

How the results depend on the processing

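The count of 86 genes called for injury under DMI moved with the method. It was 44 (all higher) at an adjusted p under 0.05, 310 (277 higher, 33 lower) with no filter on low counts, 517 (331 and 186) with DESeq2 on all 16 libraries, 9 with edgeR and 325 (264 and 61) with DESeq2 on the 8 DMI libraries, and 216 (101 and 115) with GC and length trends removed. It was 17 to 850 in fits without 1 library and 30 without Sham-DMI replicates 2 and 4, an alternative chosen after seeing the data. DEGs at the study cut-offs numbered 1932 with no filter. Under saline, 4154 genes were called with DESeq2 on 8 libraries, 1044 with GC and length trends removed, and 682 to 2725 without 1 library. The difference gave 16 calls with DESeq2 and 0 to 1 without 1 library. The causes were not tested.

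Medians of lists moved to 0.75 (injury-induced neuropeptides) and 0.10 (repair Schwann cells) with at least 10 counts in every library, which tests fewer genes, and to -0.09 (spinal cord) with DESeq2 on 8 libraries. With GC and length trends removed they were -0.13 (TRP, Piezo, acid-sensing and P2X channels), -0.02 (integrated stress response), 0.16 (repair Schwann cells), 0.08 (glucocorticoid-responsive genes) and -0.05 (tubulins). Without Sham-DMI replicates 2 and 4 they were 0.05 (receptors) and 0.99 (red cells). Without 1 library they ranged from -0.13 to 0.02 (TRP and related channels), 0.10 to 0.23 (glucocorticoid-responsive genes), -0.22 to -0.11 (sensory neuron subtypes) and -0.65 to 4.94 (skeletal muscle).

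Of the 86 called genes none changed sign without 1 library. Uncalled genes that turned direction included Creb1 (0.036), Adamts4 (-0.003) and Grhpr (-0.097) with GC and length trends removed, and Chil3 (0.394) and Creb1 (0.077) without Sham-DMI replicates 2 and 4. Without 1 library the ranges were -0.138 to 0.237 for Adamts4, -0.137 to 0.004 for Creb1, -0.033 to 0.056 for Grhpr, -0.064 to 0.568 for S100a8, -0.076 to 0.089 for Thsd7a and -0.876 to 5.124 for Tnnt3. Same-numbered replicates did not deviate together (correlations of -0.074 to -0.009, and 0 of 4 highest with their own number), and a replicate block gave 70 calls, 57 of them among the 86.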
